A study of Mus musculus with 10 samples.

Results

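Glycolysis and the handling of its product, pyruvate, were followed through 38 genes. The list names glucose and lactate transporters, the glycolytic enzymes, the pyruvate dehydrogenase complex and its kinases, the PFKFB enzymes, *Ucp2* and *Hif1a*. All 38 were found by name, among the 18901 genes in the deposited table. Poly(A) RNA from 5 mouse lines, all from a strain labelled 'cross of mf1 and 129', was read as 50-nt single reads, with 2 libraries for each line. Oct4-GFP MEF, embryonic fibroblasts with a green fluorescent protein reporter of *Oct4*, were taken at passages 2 and 4 in DMEM with serum and had received no virus. The other 4 lines came from Oct4-GFP MEF infected with retroviruses for Oct4, Sox2, Klf4 and c-Myc, were grown in KSR+LIF medium, and were taken at passages 5 and 25. One is a line of pre-iPS cells, which stopped part of the way and had not silenced the viral genes. The others are 1 clone of control iPS cells and clones 1 and 2 of "Netrin-1 derived" iPS cells, which had been given recombinant Netrin-1 while they were being reprogrammed. Each line is 1 clone or 1 culture seen at 2 passages. In a comparison of lines, a p-value given here sets the difference against the spread between the 2 passages within lines. In the comparison of passages, it is set against how far the passage difference varies between lines. The spread between independently derived clones of a kind does not enter the comparisons of lines. The medium differs between MEF and the other lines, and the methods allow irradiated MEF feeders under the pre-iPS and iPS cells.

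Glycolysis splits glucose into pyruvate in the cytoplasm. Pyruvate then either becomes lactate, through lactate dehydrogenase, and leaves the cell, or enters the mitochondrion and is turned into acetyl-CoA by the pyruvate dehydrogenase complex, which the PDK kinases switch off. Pluripotent stem cells are known for a high rate of glycolysis, and the reprogramming of fibroblasts is known to be accompanied by a shift towards it. Many of these genes are also textbook targets of HIF-1, the factor that accumulates when oxygen is low. It binds DNA at a short core, of which the form ACGTG is the one searched for here. Below, the core means ACGTG, and other forms were not searched.

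Levels are given as normalised read counts, the deposited values, which are reads on a gene brought by the authors to 1 library size common to the 10 libraries. In this unit 1 read was worth 0.888 to 1.18, and the libraries held 38110410 to 52946856 reads on genes. Fold changes are differences of log2(value + 1), given with the standard error (SE) of the fit and a p adjusted over 17075 genes (limma), those that reached 10 in 2 or more libraries. On this scale the change of genes with few reads is understated. A gene was called different at an adjusted p under 0.05 and a log2 fold change of at least 1 in size, and iPS stands for the mean of the 3 iPS lines. In these bulk libraries, fewer cells of a type and less RNA per cell cannot be told apart. The 7 pluripotency markers summed to 124260 to 164970 in the iPS libraries and to 2326 to 2817 in MEF. The 9 fibroblast markers summed to 19961 to 36352 in iPS, 20784 to 22342 in pre-iPS and 2978200 to 3123100 in MEF. In pre-iPS cells *Dppa3* was under 10 and *Esrrb* at 31.6 and 15.4, while *Pou5f1* stood at 392940 and 415440, reads that a viral copy of *Oct4* can also give.

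Promoters of 4 members that were lower at passage 25 are shown for their copies of this core, 250 bases before to 50 bases after the start that RefSeq gives on GRCm38.p6, the build of the files. *Slc2a1* and *Slc16a3* are the genes with a promoter entry that held the core and differed most between passages, and *Ldha* and *Pgk1* are abundant enzymes of the pathway. Capitals mark ACGTG on either strand, which reads CACGT on the other, and a run CACGTG holds both in overlap.

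Slc2a1 promoter, chr4:119108495-119108794, + strand: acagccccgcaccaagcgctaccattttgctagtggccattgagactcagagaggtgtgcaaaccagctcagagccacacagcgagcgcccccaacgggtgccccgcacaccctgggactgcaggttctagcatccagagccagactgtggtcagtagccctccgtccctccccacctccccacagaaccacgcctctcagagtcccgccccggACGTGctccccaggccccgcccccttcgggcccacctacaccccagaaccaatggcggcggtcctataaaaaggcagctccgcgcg

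Slc16a3 promoter, chr11:120948817-120949116, + strand: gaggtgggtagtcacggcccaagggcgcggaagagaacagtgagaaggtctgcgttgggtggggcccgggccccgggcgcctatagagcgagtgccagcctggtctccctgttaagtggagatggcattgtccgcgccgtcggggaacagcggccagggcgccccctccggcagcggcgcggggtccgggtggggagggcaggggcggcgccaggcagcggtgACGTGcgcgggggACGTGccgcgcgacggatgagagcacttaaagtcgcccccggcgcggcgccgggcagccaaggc

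Ldha promoter, chr7:46845554-46845853, + strand: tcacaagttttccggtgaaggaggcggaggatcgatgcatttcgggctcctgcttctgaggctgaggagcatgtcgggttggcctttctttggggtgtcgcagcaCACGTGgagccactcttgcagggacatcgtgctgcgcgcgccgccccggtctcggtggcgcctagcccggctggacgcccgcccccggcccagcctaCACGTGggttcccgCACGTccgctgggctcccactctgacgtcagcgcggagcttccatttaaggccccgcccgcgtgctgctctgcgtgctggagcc

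Pgk1 promoter, chrX:106186850-106187149, + strand: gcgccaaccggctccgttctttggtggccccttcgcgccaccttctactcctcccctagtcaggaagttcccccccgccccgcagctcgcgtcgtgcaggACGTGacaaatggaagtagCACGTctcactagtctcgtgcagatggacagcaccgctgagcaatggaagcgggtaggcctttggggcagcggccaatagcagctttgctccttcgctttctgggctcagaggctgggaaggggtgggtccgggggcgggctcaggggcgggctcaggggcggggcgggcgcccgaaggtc

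The first of these windows holds the core once, *Slc16a3* and *Pgk1* hold it at 2 places, and *Ldha* at 3, of which 2 are CACGTG. RefSeq promoters were matched for 36 of the 38 members (55 starts), all but *Slc2a3* and *Slc2a4*. The core was present in at least 1 start of 20 of these 36 genes (55.6%), against 21.8% of the 27025 genes with an entry, and at 2 or more places in 25.0% of the members' genes against 3.09% of all. By start, it was in 43.6% of the members' windows and in 19.6% of all 32851 windows of the same length. The members' windows were also richer in G and C, with a median of 60.7% against 52.7% over all, and their part in the difference was not tested. A match is a description of the letters and not a binding site.

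MEF, the cells from which the others were made, had less RNA of most of these genes than the iPS lines had. Of 38 members, 24 were lower in MEF and 8 were higher at an adjusted p under 0.05, where 41.9% of all genes tested were lower and 37.4% higher by the same rule. With the fold threshold, 11 were called lower and 5 higher, against 26.6% and 21.6% of all genes. The median log2 fold change of the members was -0.73, beside -0.09 over all genes. The called genes that were lower in MEF were the transporters *Slc2a1*, *Slc2a3*, *Slc16a1* and *Slc16a3*, the enzymes *Hk2*, *Pfkl*, *Pfkp*, *Aldoc* and *Eno3*, the kinase *Pdk1*, and *Ucp2*. Those that were higher were *Hk3*, *Pfkfb2*, *Pgam2*, *Eno2* and *Hif1a*. The direction of this split depends little on scaling but its size does. When values were scaled to the total of reads on genes, 2 members were called higher and 22 lower (all genes 14.9% and 35.9%), and the median of all genes moved to -0.53 (members -1.18). With quantile normalisation the counts were 4 and 20 (all genes 23.2% and 22.9%, members' median -1.10).

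**Figure D1:**
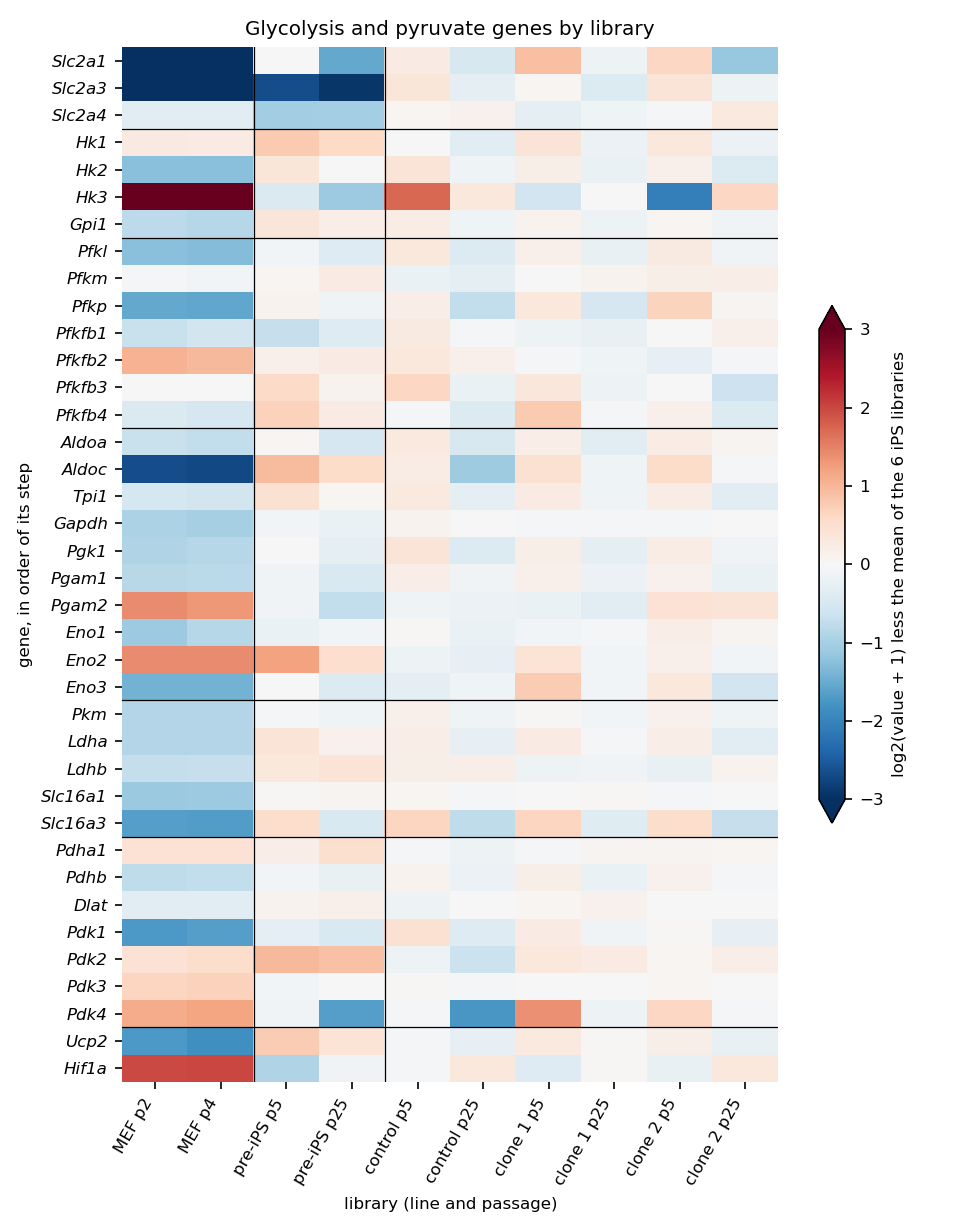
Heat map of the 38 genes (rows, in order of their step) in the 10 libraries (columns, by line and passage); the colour is log2(value + 1) less the mean of the 6 iPS libraries, cut off at -3 and 3. The 2 MEF columns are mostly blue with *Hk3* and *Hif1a* in red, and the pre-iPS columns stand apart from iPS chiefly in *Slc2a3* and *Slc2a4*.

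In pre-iPS cells against iPS 2 members were called, *Slc2a3* and *Slc2a4*, both lower, where 11.6% of all genes were called lower and 4.71% higher. By adjusted p alone 6 members were higher (*Hk1*, *Eno2*, *Ldhb*, *Pdk2*, *Pdha1* and *Ucp2*) and 3 lower (*Slc2a3*, *Slc2a4* and *Pfkfb1*), against 18.7% and 20.8% of all genes. With the passage as a block, which pairs the libraries of passages 5 and 25 across lines, 13 members were higher and 8 lower by adjusted p, against 23.4% and 24.4% of all genes in the same fit. The 12 that this added were *Hk2*, *Gpi1*, *Pfkfb3*, *Pfkfb4*, *Aldoc*, *Tpi1* and *Ldha* among the higher and *Slc2a1*, *Pgam1*, *Pdk1*, *Pdk4* and *Hif1a* among the lower. *Hk1*, *Eno2*, *Ucp2* and *Pfkfb1* lost their adjusted p without the pre-iPS library of passage 5 (0.122, 0.0851, 0.0927 and 0.169), and *Ldhb* and *Pdha1* without that of passage 25 (0.0895 and 0.104). Against MEF, pre-iPS cells had 14 members called higher and 4 lower (all genes 22.4% and 20.9%), or 24 and 7 by adjusted p alone (36.4% and 34.2%). Scaled to total reads these calls were 21 and 3, against 31.8% and 15.3% of all genes, and the median of all genes moved from 0.06 to 0.48 (members 0.76 to 1.19). With quantile normalisation they were 20 and 5 (all genes 20.5% and 20.2%). These comparisons share libraries with each other. Libraries that do not overlap are common in these data, and where named below they are a description. MEF lay wholly above iPS in 8 members and wholly below in 26, against 38.2% and 41.9% of all genes. Pre-iPS cells lay wholly above iPS in 6 members and below in 4 (all genes 20% and 21.7%). They lay wholly above MEF in 28 and below in 8 (45.4% and 42.1%).

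**Figure D2:**
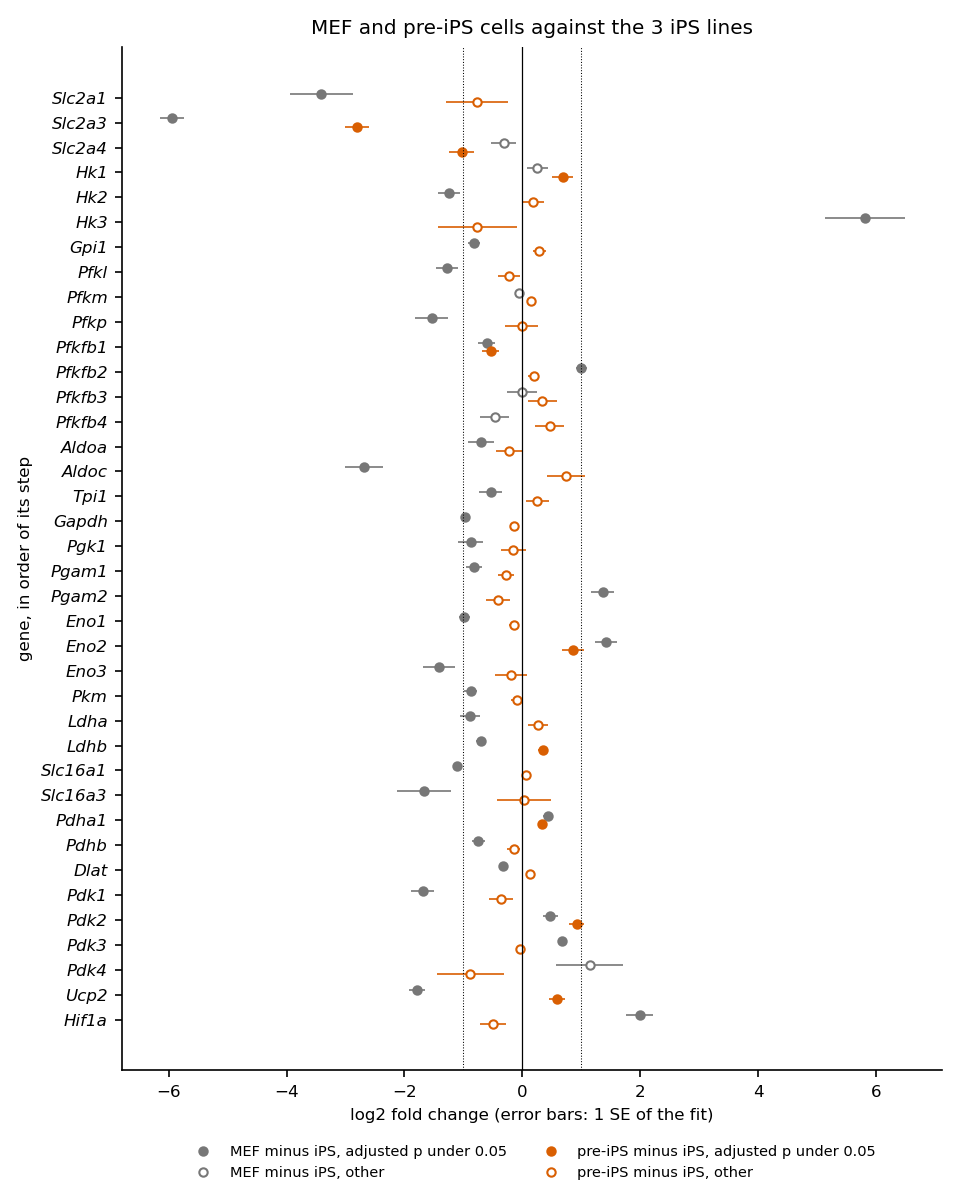
Log2 fold change of each of the 38 genes (rows) in MEF (grey) and pre-iPS cells (orange) against the mean of the 3 iPS lines, with error bars of 1 SE of the fit; filled points have an adjusted p under 0.05 and dotted lines mark a log2 fold change of 1 in size. *Slc2a3* lies farthest to the left in both comparisons, and *Hk3* farthest to the right in MEF.

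Glucose enters through facilitative transporters. *Slc2a1* (GLUT1, the widespread transporter, chromosome 4, 119108711 to 119137983, + strand) stood at 5771 and 5540.5 in MEF at passages 2 and 4, at 60156 and 20622 in the pre-iPS line at passages 5 and 25, and at 27416 to 112149, median 62242, in the 6 iPS libraries. Every MEF library lay below every other library, and the difference from iPS was 10.6-fold (log2 -3.41 ± 0.53, adjusted p = 0.000327). The pre-iPS library of passage 5 lay within the iPS range and that of passage 25 below it (log2 -0.77 ± 0.53, adjusted p = 0.283, or 0.0115 with passage as a block). *Slc2a3* (GLUT3, a transporter of high affinity, chromosome 6, 122727809 to 122801640, - strand) stood at 652 and 596 in MEF, at 6056 and 5063 in the pre-iPS line and at 29183 to 50741, median 37434, in the 6 iPS libraries. The 3 kinds of cell did not overlap. Pre-iPS cells lay between MEF and iPS, 8.87-fold above MEF (log2 3.15 ± 0.25, adjusted p = 6.66e-06) and 6.95-fold below iPS (log2 -2.80 ± 0.20, adjusted p = 2.77e-05). In MEF the log2 fold change against iPS was -5.95 ± 0.20 (adjusted p = 4.34e-08), the most negative of the 38 members. *Slc2a4* (GLUT4, the insulin-responsive transporter of muscle and fat) had few reads, at 37.9 and 38 in MEF, 22.4 and 23.0 in the pre-iPS line and 39.1 to 58.2, median 47.5, in the 6 iPS libraries. Its fold change in pre-iPS cells against iPS (log2 -1.03 ± 0.21, adjusted p = 0.00488) rests on few reads, and with quantile normalisation it was -0.45 (adjusted p = 0.109).

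Per kilobase of exon, a scale on which genes can be set side by side, *Slc2a3* made up 22.8 to 51.0% of the 3 glucose transporters in the iPS libraries, 7.65 to 16.8% in pre-iPS cells and 8.08 to 8.45% in MEF. *Slc2a1* led in the mean of each group, with 90.9 to 91.2% in MEF and 48.9 to 77.2% in iPS. These shares are a description with no test.

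Hexokinase traps glucose in the cell as glucose 6-phosphate. *Hk2*, the regulated form that is high in many growing cells, stood at 2698 and 2716 in MEF, 8237 and 6495 in the pre-iPS line and 4845 to 8353, median 6540, in the 6 iPS libraries, so MEF lay below every other library (log2 -1.25 ± 0.19 against iPS, adjusted p = 0.000248). *Hk1*, the form of most tissues, stood at 6583 and 6507 in MEF, 9449.8 and 8224 in the pre-iPS line and 4334 to 7155, median 5161, in the 6 iPS libraries. Pre-iPS cells lay above every iPS library for *Hk1* (log2 0.69 ± 0.18, adjusted p = 0.015), and MEF within the iPS range (log2 0.26 ± 0.18, adjusted p = 0.205). *Hk3*, a hexokinase best known from blood cells, stood at 227 and 238 in MEF, 2.04 and 0.957 in the pre-iPS line and 0 to 12.6, median 3.63, in the 6 iPS libraries (log2 5.82 ± 0.67 for MEF against iPS, adjusted p = 4.66e-05). The summed level of 7 macrophage markers was also highest in MEF, at 12693 to 12716 in MEF with all 7 detected, 432.8 to 1270 in iPS and 892 to 1659 in pre-iPS cells. *Ptprc*, *C1qa*, *C1qb* and *Emr1* were under 10 in every pre-iPS and iPS library. *Cd68* did not follow, at 767 and 715 in MEF, 1565 and 853 in the pre-iPS line and 353.6 to 1124 in iPS, and it made up most of the sums there. Its part in the *Hk3* result was not tested. Per kilobase, *Hk1* made up 70.7 to 71.2% of hexokinase in MEF, 57.0 to 59.4% in pre-iPS cells and 43.2 to 53.5% in iPS, and *Hk2* 25.2 to 25.5%, 40.6 to 43.0% and 46.4 to 56.7%. *Gpi1*, which turns glucose 6-phosphate into fructose 6-phosphate, stood at 18729 and 17960.3 in MEF, 41755 and 37384 in the pre-iPS line and 29364 to 37589.5, median 31998, in the 6 iPS libraries. It was lower in MEF than in iPS (log2 -0.82 ± 0.11, adjusted p = 0.000108) and called in pre-iPS cells against MEF (log2 1.11 ± 0.13, adjusted p = 8.16e-05).

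Phosphofructokinase catalyses the committed step, and its subunits come from 3 genes named for liver, muscle and platelet. *Pfkl* stood at 7582 and 7372 in MEF, 17237 and 13922 in the pre-iPS line and 13708 to 22446, median 18364, in the 6 iPS libraries. *Pfkp* stood at 2653 and 2596 in MEF, 8188 and 6994 and 4573 to 12145, median 8386, in the 6 iPS libraries. Both were lower in MEF than in every other library. Their log2 fold changes against iPS were -1.28 ± 0.19 (adjusted p = 0.000264) and -1.54 ± 0.28 (adjusted p = 0.000858). *Pfkm* stood at 3159 and 3065 in MEF, 3339 and 3836 in the pre-iPS line and 2633 to 3684, median 3364, in the 6 iPS libraries, with MEF inside the iPS range (log2 -0.05 ± 0.07, adjusted p = 0.538). Per kilobase, the share of *Pfkm* in the family was 28.4% in both MEF libraries and 10.5 to 17.6% in iPS.

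The 4 PFKFB enzymes make and remove fructose 2,6-bisphosphate, the activator of phosphofructokinase. Per kilobase of exon their means in iPS were 155 to 369, against 1083 for *Pfkm* and 42820 for *Gapdh*. *Pfkfb2* (heart form) stood at 1885 and 1796 in MEF, 1018 and 1083 in the pre-iPS line and 772 to 1137, median 895, in the 6 iPS libraries. It was the PFKFB gene called higher in MEF (log2 1.00 ± 0.09, adjusted p = 8.81e-06), a value at the fold threshold. *Pfkfb3*, the form that favours synthesis of the activator, stood at 1946 and 1969 in MEF, 2936 and 2099 in the pre-iPS line and 1277 to 3034, median 1848, in the 6 iPS libraries. MEF differed from iPS by 0.00 ± 0.25 on the log2 scale (adjusted p = 0.999). *Pfkfb4* stood at 396 and 382 in MEF, 866 and 640.4 in the pre-iPS line and 407 to 929, median 516, in the 6 iPS libraries (log2 -0.47 ± 0.24 for MEF against iPS, adjusted p = 0.107). *Pfkfb1*, on the X chromosome, stood at 197 and 214 in MEF, 194 and 239 in the pre-iPS line and 270 to 378, median 307, in the 6 iPS libraries. It was lower in pre-iPS cells (log2 -0.54 ± 0.15, adjusted p = 0.0189) and in MEF (log2 -0.61 ± 0.15, adjusted p = 0.00432) than in iPS.

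From fructose 1,6-bisphosphate to phosphoglycerate, the abundant genes were all lower in MEF by less than the fold threshold. Aldolase A, *Aldoa*, stood at 37442 and 36094 in MEF, 62112 and 42439.6 in the pre-iPS line and 43180.3 to 73851, median 66172, in the 6 iPS libraries (log2 -0.71 ± 0.22 for MEF against iPS, adjusted p = 0.0171). Triosephosphate isomerase, *Tpi1*, stood at 21012 and 20447, 40987 and 31321 and 23585 to 36626, median 31544, in the 6 iPS libraries (log2 -0.54 ± 0.20, adjusted p = 0.0325). Both comparisons lost their adjusted p without either MEF library (0.0744 to 0.139), and that of *Tpi1* also without any 1 iPS library of passage 5 (0.0528 to 0.0603). *Gapdh*, which makes the first NADH of the pathway and is often used as a reference gene, stood at 33327 and 32256, 60423 and 55984 and 61198 to 68644, median 63301, in the 6 iPS libraries (log2 -0.96 ± 0.06, adjusted p = 1.2e-06). For *Gapdh*, MEF lay 1.95-fold below iPS with no overlap. *Pgk1*, which makes the first ATP, stood at 28057 and 28700.4, 51842 and 42384 and 39387 to 68297, median 53310.1, in the 6 iPS libraries (log2 -0.88 ± 0.21, adjusted p = 0.00394). *Aldoc*, the aldolase named for brain, was the exception in size. Its values were 319 and 309 in MEF, 3888 and 2962 in the pre-iPS line and 961 to 2967, median 2179, in the 6 iPS libraries. The log2 fold change was -2.69 ± 0.32 in MEF against iPS (adjusted p = 5.92e-05) and 3.43 ± 0.39 in pre-iPS cells against MEF (adjusted p = 6.46e-05), the largest rise of the 38 members in the latter comparison. *Aldoa* still made up 95.9 to 99.5% of aldolase per kilobase in every library.

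Phosphoglycerate mutase and enolase lead on to phosphoenolpyruvate. *Pgam1* stood at 21893 and 22209 in MEF, 36102 and 28583 in the pre-iPS line and 33948 to 44979, median 39209.7, in the 6 iPS libraries (log2 -0.82 ± 0.14 for MEF against iPS, adjusted p = 0.000558). *Pgam2*, the muscle form, ran the other way, at 235 and 217 in MEF, 81.6 and 51.8 in the pre-iPS line and 68.8 to 119, median 78.2, in the 6 iPS libraries (log2 1.36 ± 0.20, adjusted p = 0.000242). *Eno2*, the enolase named for neurons, was also higher in MEF, at 2758 and 2786 against 2388 and 1470 in the pre-iPS line and 878 to 1385, median 971, in the 6 iPS libraries (log2 1.42 ± 0.19, adjusted p = 0.000121). It was higher in pre-iPS cells than in iPS (log2 0.86 ± 0.19, adjusted p = 0.00795). The summed level of 8 skeletal muscle markers was 1089 to 1109 in MEF, where 5 of them were under 10 and *Acta1* gave 1018 and 1036, 1489 to 1988 in pre-iPS cells and 1683 to 4251 in iPS. That of 6 neuron markers was 9968 to 10316 in MEF, where *Snap25* and *Rbfox3* were under 10 and *Map2* gave 7416 and 7753, 13097 to 17993 in pre-iPS cells and 6030 to 18356 in iPS. *Acta1* and *Map2* were higher in MEF than in every iPS library (89 to 773 and 1085 to 2237), but most of both lists ran the other way. Of 5 skeletal muscle markers tested, 1 was called higher in MEF and 3 lower. Of 6 neuron markers, 1 was called higher and 4 lower, where 21.6% of all genes were called higher and 26.6% lower. The sum of 4 smooth muscle markers was higher in MEF, as *Pgam2* was, at 216940 to 219390 in MEF, 1124 to 3967 in pre-iPS cells and 2294 to 11087 in iPS. Between the Netrin-1 derived clones they went apart. In clone 2 against clone 1 the median log2 fold change of these markers was -0.94 and that of *Pgam2* 0.68, with none of them called. The part of these markers in the results was not tested. *Eno3*, the muscle enolase, was lower in MEF, at 565 and 563 against 1528 and 1131 in the pre-iPS line and 1019.8 to 2568, median 1391, in the 6 iPS libraries (log2 -1.42 ± 0.27, adjusted p = 0.00109). *Eno1*, the general enolase, stood at 1319.9 and 1557 in MEF, 2469 and 2676 in the pre-iPS line and 2469.6 to 3273, median 2807, in the 6 iPS libraries (log2 -0.98 ± 0.09, adjusted p = 1.2e-05). These values are uncertain as a level, since 26.0% of the 50-base stretches of its transcripts also occur in other genes. The gene listed as Gm5506 (*Eno1b*), its near-identical copy, was given 7906 to 8039 in MEF, 12980 to 13208 in pre-iPS cells and 13356 to 17342 in iPS. The enolase shares per kilobase carry the same limit.

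Shared sequence bears on other abundant members too. By the same count it was 53.9% for *Pgk1*, 36.2% for *Pgam1*, 25.8% for *Pkm*, 25.1% for *Gapdh* and 21.0% for *Ldhb*, and 0% for 13 members, among them *Hk2*, *Aldoc*, *Pdk1* and *Slc16a3*. How reads that match several genes were counted is not given in the sources used here, and the libraries do not mark strand.

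Pyruvate kinase closes glycolysis, and *Pkm* was the most abundant of the 38 genes per kilobase in MEF, pre-iPS cells and iPS. It stood at 85195 and 84265 in MEF, 151386 and 142021 in the pre-iPS line and 141719 to 173948, median 153338, in the 6 iPS libraries, 1.84-fold lower in MEF than in iPS (log2 -0.88 ± 0.11, adjusted p = 6.12e-05). *Ldha*, the lactate dehydrogenase subunit that favours lactate, stood at 38274 and 38578 in MEF, 93362 and 77131 in the pre-iPS line and 56539 to 83502, median 74571, in the 6 iPS libraries (log2 -0.88 ± 0.17, adjusted p = 0.00123). *Ldhb* stood at 2505 and 2538 in MEF, 5104 and 5436 in the pre-iPS line and 3511 to 4687, median 4134, in the 6 iPS libraries (log2 -0.71 ± 0.09, adjusted p = 7.23e-05). *Ldhb* was higher in pre-iPS cells than in iPS (log2 0.36 ± 0.09, adjusted p = 0.0121). Both subunits were called higher in pre-iPS cells than in MEF, and *Ldha* made up 89.7 to 94.1% of the pair per kilobase in the 10 libraries. Lactate leaves by *Slc16a3* (MCT4), the exporter of strongly glycolytic cells, and passes both ways through *Slc16a1* (MCT1). *Slc16a1* held close together in the reprogrammed lines, at 3141 and 3185 in MEF, 6949 and 7164 in the pre-iPS line and 6559 to 7017, median 6759, in the 6 iPS libraries (log2 -1.10 ± 0.06 for MEF against iPS, adjusted p = 2.76e-07). *Slc16a3* stood at 2758 and 2703 in MEF, 12442 and 6283 in the pre-iPS line and 5136 to 13577, median 9579, in the 6 iPS libraries (log2 -1.67 ± 0.46, adjusted p = 0.00923, or 0.0532 and 0.0565 without 1 MEF library or the other), and in the pre-iPS and iPS lines its wide range followed the passage.

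**Figure D3:**
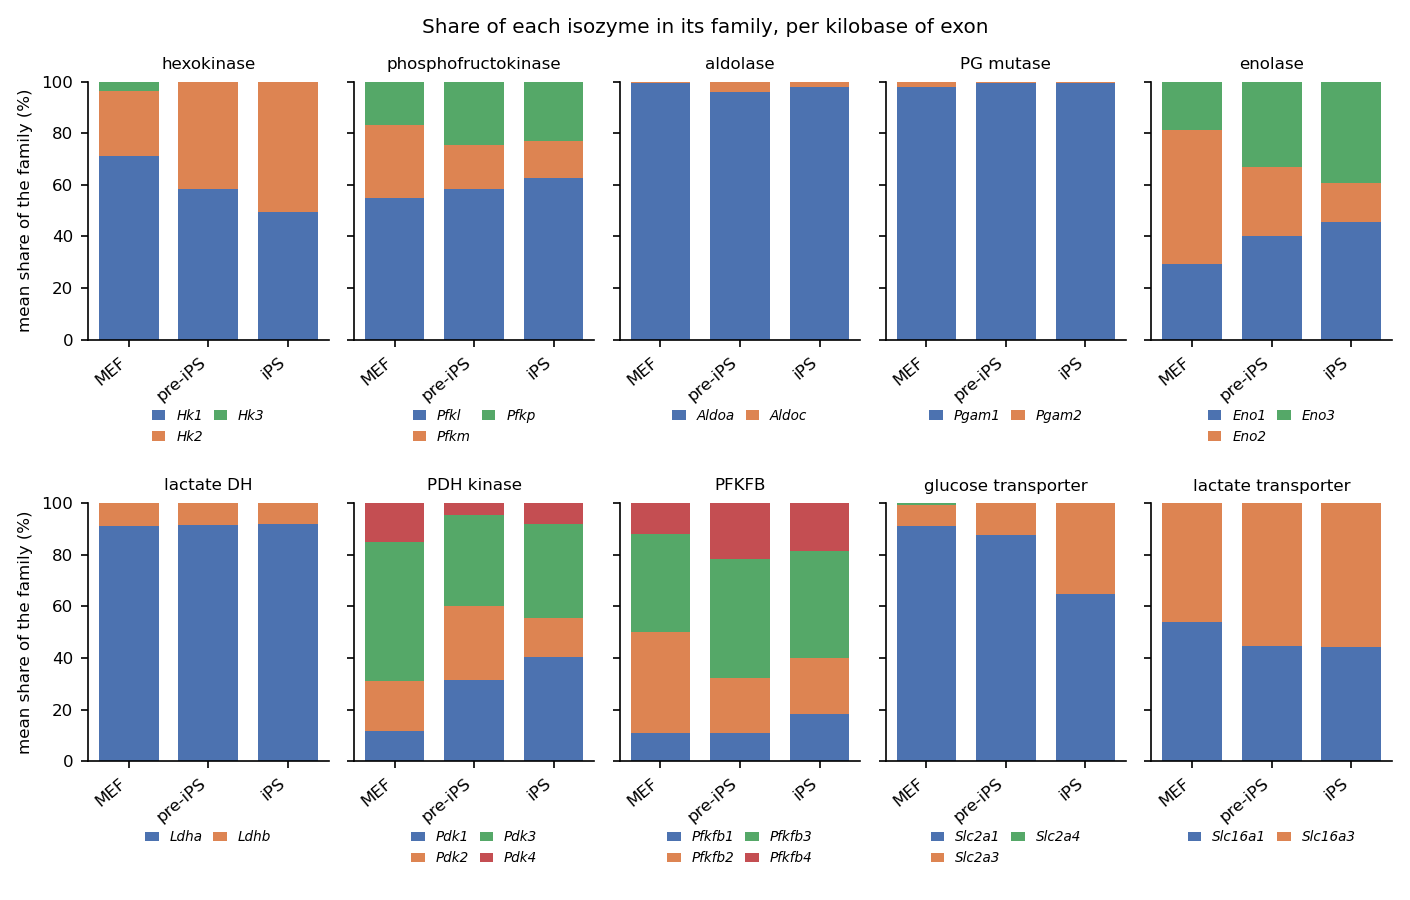
Mean share (%) of each isozyme in the sum of its family, per kilobase of exon, in MEF (2 libraries), pre-iPS cells (2) and iPS (6), for 10 families; PG mutase is phosphoglycerate mutase, DH dehydrogenase. The shares of *Hk2*, *Slc2a3* and *Pdk1* are larger in iPS than in MEF, while aldolase, PG mutase and lactate DH are made up almost wholly of 1 gene in all 3.

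At the mitochondrial gate, the pyruvate dehydrogenase genes differed between MEF and iPS by less than the fold threshold, *Pdhb* the most. *Pdha1*, the X-linked E1 alpha subunit, was higher in MEF at 9444 and 9503, against 8029 and 9877 in the pre-iPS line and 6369 to 7472, median 7097, in the 6 iPS libraries (log2 0.43 ± 0.08 for MEF against iPS, adjusted p = 0.00114). With values scaled to total reads this difference was -0.02 (adjusted p = 0.81) and with quantile normalisation 0.09 (adjusted p = 0.352), so its sign depended on the scaling. *Pdha1* was also higher in pre-iPS cells than in iPS (log2 0.34 ± 0.08, adjusted p = 0.0114). The X-linked members are *Pdha1*, *Pgk1*, *Pdk3* and *Pfkfb1*, and the lines differ in sex-linked reads. There were 15713 to 22992 *Xist* reads and 0 to 7 reads of each of 4 Y-linked genes in pre-iPS cells and clone 2. The control line and clone 1 had 140 to 328 *Xist* reads and 753 to 2814 reads of each Y-linked gene. MEF had both, with 44538 to 50201 *Xist* reads and 64 to 367 of each Y-linked gene. Their part in these results was not tested. *Pdhb*, the E1 beta subunit, stood at 3097 and 3144 in MEF, 4984 and 4521 in the pre-iPS line and 4602 to 5905, median 5361, in the 6 iPS libraries (log2 -0.75 ± 0.11, adjusted p = 0.000251). *Dlat*, the E2 core, stood at 3947 and 3921 in MEF, 5351 and 5460.5 and 4474 to 5361, median 4909, in the 6 iPS libraries (log2 -0.33 ± 0.06, adjusted p = 0.00067).

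The kinases that switch the complex off differed among themselves. *Pdk1*, a HIF target, stood at 1341 and 1419 in MEF, 3696 and 3236 in the pre-iPS line and 3429 to 6165, median 4344, in the 6 iPS libraries (log2 -1.69 ± 0.20, adjusted p = 5.72e-05). *Pdk2* stood at 963 and 1018 in MEF, 1394 and 1303 in the pre-iPS line and 452 to 884, median 778, in the 6 iPS libraries. Every pre-iPS library lay above every iPS library (1.89-fold, log2 0.92 ± 0.13, adjusted p = 0.000816). In MEF against iPS *Pdk2* differed by 0.48 ± 0.13 (adjusted p = 0.00776), and by 0.02 with values scaled to total reads (adjusted p = 0.874). *Pdk3* stood at 2560 and 2617 in MEF, 1532 and 1632 in the pre-iPS line and 1558 to 1694, median 1621, in the 6 iPS libraries (log2 0.67 ± 0.07, adjusted p = 1.65e-05). *Pdk4*, the kinase known from fasting and fat use, stood at 1169 and 1213 in MEF, 501 and 169 in the pre-iPS line and 159 to 1387, median 519, in the 6 iPS libraries. It overlapped between MEF and iPS (log2 1.15 ± 0.57, adjusted p = 0.0926) and was called lower in pre-iPS cells than in MEF (log2 -2.03 ± 0.70, adjusted p = 0.0278). That call was lost when values were scaled to total reads (log2 -1.60, adjusted p = 0.0573), without the pre-iPS library of passage 25 (log2 -1.25, adjusted p = 0.189) and without either MEF library (adjusted p = 0.089 and 0.096). Per kilobase, *Pdk1* made up 11.6 to 11.8% of the 4 kinases in MEF and 36.0 to 49.3% in iPS, and *Pdk3* 53.5 to 54.2% and 29.7 to 44.8%.

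*Ucp2*, a mitochondrial carrier linked to the choice between glucose and other fuels, stood at 4407 and 4075 in MEF, 24695 and 19544 in the pre-iPS line and 12381 to 18020.1, median 14473, in the 6 iPS libraries. The 3 kinds of cell did not overlap. Pre-iPS cells were on top (log2 0.59 ± 0.13 against iPS, adjusted p = 0.0078) and MEF at the bottom (log2 -1.78 ± 0.13, adjusted p = 2.5e-06). *Hif1a*, the oxygen-regulated subunit of HIF-1, whose activity is set mainly through the stability of its protein, was highest in MEF. Its RNA stood at 19723 and 20136 in MEF, 2694 and 4682 in the pre-iPS line and 3828 to 6293, median 4973, in the 6 iPS libraries. It was 3.97-fold higher in MEF than in iPS (log2 1.99 ± 0.23, adjusted p = 4.27e-05) and 5.61-fold lower in pre-iPS cells than in MEF (log2 -2.49 ± 0.28, adjusted p = 5.35e-05).

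Within the reprogrammed lines, much of the pathway was lower at passage 25 than at passage 5. The fit held the 8 libraries of these lines, each line being its own block with 1 library for either passage. Of the 38 members 20 fell and 1 rose at an adjusted p under 0.05, where 7.63% of all genes were lower and 3.31% higher. With the fold threshold 3 fell and 0 rose (1.29% and 0.398% of all genes), and the median of the members was -0.31 beside -0.01 over all genes. Without regard to a test, 23 members were lower at passage 25 in all 4 lines and 3 were higher in all 4 (*Slc2a4*, *Ldhb* and *Hif1a*), against 20.9% and 15.1% of all genes. The count by adjusted p changed with the libraries in the fit. In this fit, leaving out either library of a line removes what that line says of passage, since its other library then has no pair. The count was 6 and 7 without the clone 1 libraries of passages 5 and 25. Without either pre-iPS library it was 13, and in the 6 iPS libraries alone 11. These fits hold fewer libraries and the shares of all genes in them are not given here, so the weight of a line is not read from these counts. *Slc2a1*, *Slc16a3*, *Hk2*, *Tpi1*, *Pfkfb3* and *Hif1a* kept an adjusted p under 0.05 without any 1 of the 8 libraries, and so without any 1 of the 4 lines.

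**Figure D4:**
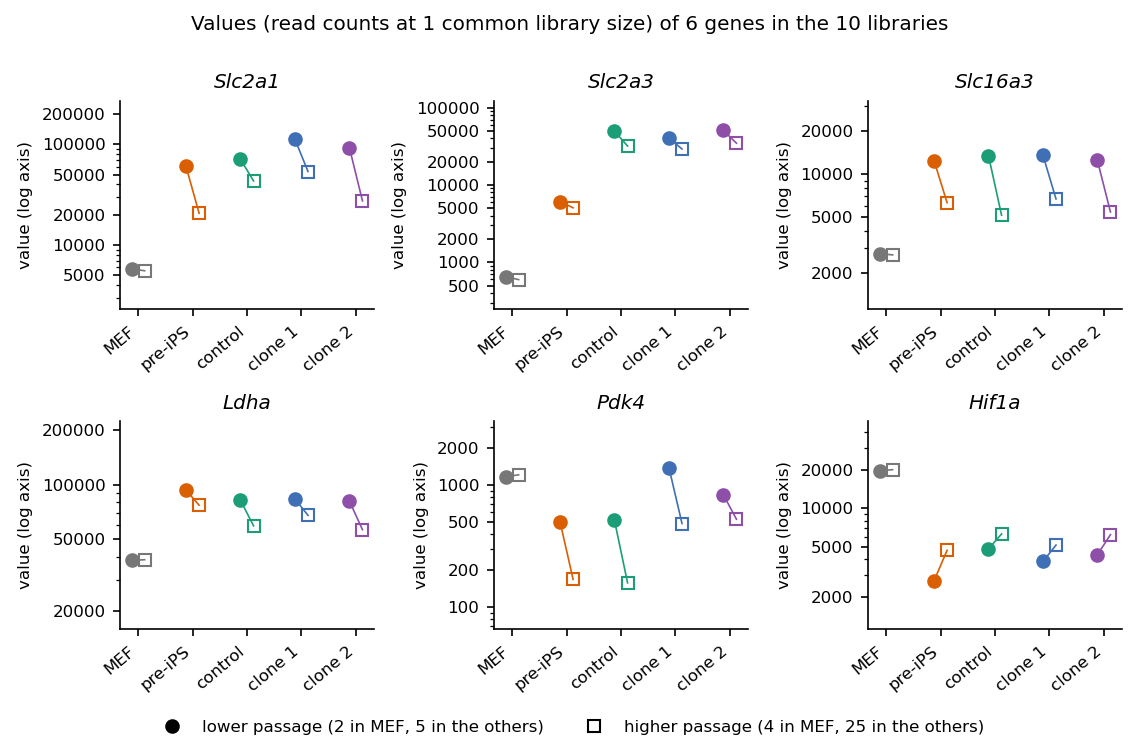
Values (read counts at 1 common library size, log axes) of 6 genes in the 5 lines, with the lower passage as a filled circle and the higher as an open square. *Slc2a1*, *Slc2a3*, *Slc16a3*, *Ldha* and *Pdk4* are lower at passage 25 than at passage 5 in each of the 4 reprogrammed lines and *Hif1a* is higher, while the MEF libraries of passages 2 and 4 lie close together.

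The 3 genes that passed the fold threshold stand at the entrance, the exit and the mitochondrial gate. For *Slc16a3*, the lactate exporter, the values at passages 5 and 25 were 12442 and 6283 in the pre-iPS line, 13463 and 5136 in the control line, 13577 and 6683 in clone 1 and 12475 and 5409 in clone 2. All 4 libraries of passage 5 lay within a narrow range and above the 4 of passage 25, which kept 38.2 to 50.5% of it (log2 -1.15 ± 0.07, adjusted p = 0.00083). For *Slc2a1* they were 60156 and 20622 in the pre-iPS line, 70871 and 43221 in the control line, 112149 and 53614 in clone 1 and 92598 and 27416 in clone 2. Here too every library of passage 5 lay above every library of passage 25, and 29.6 to 61.0% remained (log2 -1.27 ± 0.16, adjusted p = 0.00585). For *Pdk4* they were 501 and 169 in the pre-iPS line, 513 and 159 in the control line, 1387 and 484 in clone 1 and 833 and 525 in clone 2 (log2 -1.36 ± 0.17, adjusted p = 0.0059, or 0.0511 without the clone 1 library of passage 5). The passages overlapped between lines, and clone 2 kept 63.0% of its *Pdk4* where the other lines kept 30.9 to 34.9%.

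Enzymes of several steps fell by less than the fold threshold. *Tpi1* fell by 0.47 ± 0.06 on the log2 scale (adjusted p = 0.00619) and *Hk2* by 0.44 ± 0.05 (adjusted p = 0.00558). *Pgam1* fell by 0.33 ± 0.05 (adjusted p = 0.00816), with passage 25 at 79.2 to 80.0% of passage 5 in all 4 lines. *Ldha* fell by 0.39 ± 0.06 (adjusted p = 0.0134), *Slc2a3* by 0.48 ± 0.07 (adjusted p = 0.00875), *Pfkl* by 0.44 ± 0.07 (adjusted p = 0.0137) and *Pfkp* by 0.64 ± 0.11 (adjusted p = 0.0149). *Pfkfb3* and *Pfkfb4* fell by 0.61 ± 0.07 (adjusted p = 0.00491) and 0.54 ± 0.10 (adjusted p = 0.0214), and *Pfkfb1* and *Pfkfb2* differed by 0.02 and 0.01. The remaining genes that fell were *Hk1*, *Gpi1*, *Aldoa*, *Aldoc*, *Pgk1*, *Pdk1*, *Pdhb* and *Ucp2*, with log2 fold changes from -0.23 (*Gpi1*) to -0.72 (*Aldoc*). These depended more on single libraries. Of the 8 fits that left out 1 library, *Gpi1* and *Pdhb* kept an adjusted p under 0.05 (limma) in 0. *Aldoa*, *Aldoc*, *Pdk1* and *Ucp2* kept it in 2, and *Hk1* and *Pgk1* in 4. *Gapdh*, *Eno1*, *Slc16a1*, *Pfkm*, *Pdk3*, *Pdha1* and *Dlat* differed by less than 0.1 on this scale, with adjusted p from 0.51 to 0.896. *Eno2*, *Eno3* and *Pkm* differed by -0.39, -0.51 and -0.19 and missed the threshold (adjusted p = 0.059, 0.0939 and 0.111), and *Pgam2*, *Pdk2*, *Ldhb* and *Slc2a4* lay between -0.22 and 0.15. *Hk3* was at 0 to 12.6 in these libraries and no change is read from it. *Hif1a* was the gene that rose, at 2694 and 4682 in the pre-iPS line, 4801 and 6293 in the control line, 3828 and 5146 in clone 1 and 4316 and 6212 in clone 2 at passages 5 and 25 (log2 0.53 ± 0.07, adjusted p = 0.00781), which is 131 to 174% of passage 5.

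Of the 20 members that fell, 19 have a promoter entry and 11 of those hold ACGTG (57.9%), and of the 17 other members with an entry 9 do (52.9%). The core was thus about as common in both sets. The windows printed above for *Slc2a1*, *Slc16a3*, *Ldha* and *Pgk1* belong to genes that fell. No ACGTG was found in the entry of *Pdk4*, *Tpi1* or *Pfkp*, where other forms of the core were not searched.

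HIF targets outside glycolysis fell as well. All 15 genes of that list were lower at passage 25 in all 4 lines and had an adjusted p under 0.05, with a median log2 fold change of -0.80, and 4 passed the fold threshold. Of all genes 20.9% were lower in all 4 lines, and 7.63% were lower by adjusted p. The list was written with earlier results of these data known, so its fall is a description and not separate support for that of the members. Without single libraries, 8 to 14 of the 15 kept the adjusted p, with 8 when either clone 1 library was left out, and 11 did in the 6 iPS libraries alone. *Ankrd37* fell by 1.87 ± 0.13 and *Adm* (adrenomedullin) by 1.59 ± 0.14 (adjusted p = 0.000858 and 0.00192). In the list of HIF subunits and oxygen sensors 4 of 9 fell, led by *Egln3*, an oxygen-sensing prolyl hydroxylase that is itself a HIF target. It went from 11538 to 2498 in pre-iPS cells, 6433 to 1523 in the control line, 18553 to 3744 in clone 1 and 13692 to 2678 in clone 2 (log2 -2.24 ± 0.06, adjusted p = 1.92e-05). In the other lists the counts by adjusted p were as follows, where 7.63% of all genes were lower and 3.31% higher. Of 28 other genes of glucose handling 2 fell and 0 rose, and of 24 of pyruvate and lactate handling 3 fell and 0 rose. Of 18 of the TCA cycle 0 fell and 1 rose (*Sdha*, named after its values were seen), and of 9 of the pentose phosphate pathway 0 did either (limma, where 2 of the 9 were lower at an unadjusted p under 0.05). At that unadjusted p, 3015 of all 17075 genes were lower with passage and 1956 higher. Of 7 genes of the Myc and Mlx family 1 fell (*Mlx*, named after its values were seen) and 0 rose. *Gpd1*, glycerol 3-phosphate dehydrogenase, was the one called among these. It went from 252 to 73.0 in pre-iPS cells, 420.6 to 191 in the control line, 254 to 85.2 in clone 1 and 283 to 123 in clone 2 (log2 -1.42 ± 0.15, adjusted p = 0.00385). By the same rule 0 of 7 pluripotency and 0 of 9 fibroblast markers differed with passage (at an unadjusted p under 0.05, 0 and 3 did), while 2 of 4 smooth muscle, 2 of 7 macrophage and 2 of 5 tested skeletal muscle markers were lower, and 1 of 6 neuron markers was lower and 1 higher. The part of these markers in the passage results was not tested. Passage cannot be told apart from the day of culture or harvest, and the density and medium at harvest are not given in the sources used here.

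**Figure D5:**
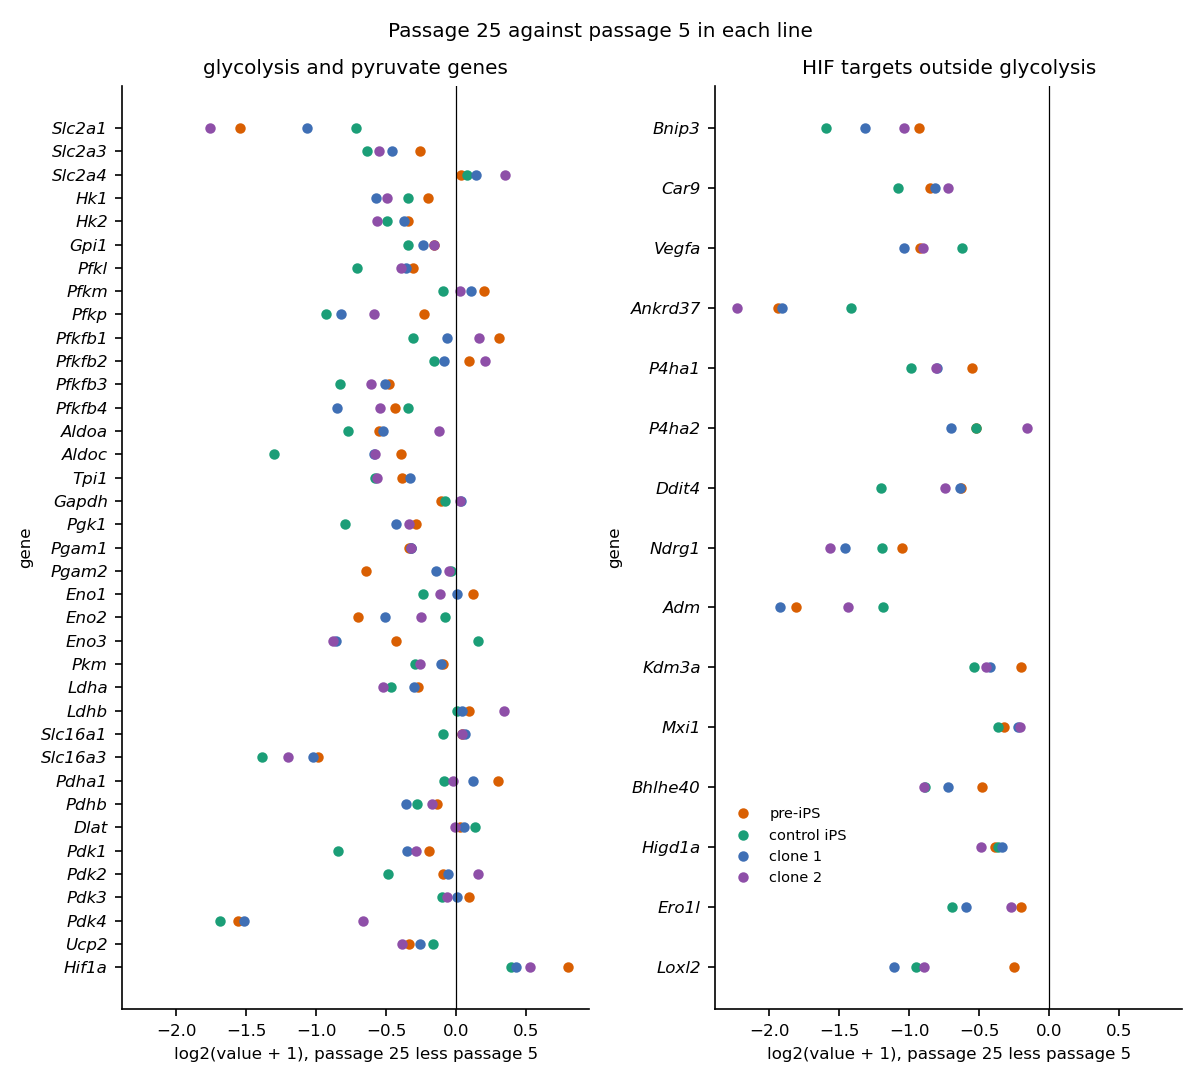
Difference of log2(value + 1) between passage 25 and passage 5 in each of the 4 reprogrammed lines (points, coloured by line) for 37 of the 38 genes (left, *Hk3* left out for its values near 0) and for 15 HIF targets outside glycolysis (right). Most points on the left and all on the right lie below 0, and *Hif1a* lies above 0 in all 4 lines.

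The Netrin-1 derived clones were compared with the control line by the mean of both clones, and limma called 0 of the 38 members, where 0.990% of all genes were called higher and 1.12% lower, and DESeq2 and edgeR on recovered reads called none either. By adjusted p alone 2 members were higher and 0 lower, against 2.20% and 1.89% of all genes. At an unadjusted p under 0.05 (limma) there were 2 higher and 2 lower, where 1615 of all 17075 genes were higher and 1451 lower. *Pfkm* stood at 2819 and 2633 in the control line, 3238 and 3489 in clone 1 and 3618 and 3684 in clone 2 (log2 0.36 ± 0.08, adjusted p = 0.0386, 0.00297 to 0.225 over 20 alternatives). *Pdk2* stood at 635 and 452, 884 and 848 and 737 and 819.9 in the same order (log2 0.61 ± 0.14, adjusted p = 0.0458, 0.00238 to 0.22 over the alternatives). In both genes the 4 clone libraries lay above the 2 control libraries, and neither kept its adjusted p when the fit held the 3 iPS lines alone (0.106 and 0.175). *Pdk4* differed by log2 1.36 ± 0.60 (adjusted p = 0.284), and with passage as a block its adjusted p was 0.0105, so 1 member was then called (1.61% of all genes higher and 1.69% lower in that fit), and over 20 alternatives its adjusted p ran from that value to 0.819. Differences that missed the threshold were larger in *Aldoc* (log2 0.64 ± 0.34) and *Pfkp* (0.41 ± 0.30) than in *Slc2a3* (-0.07 ± 0.22), *Ldha* (0.03 ± 0.18), *Gapdh* (-0.09 ± 0.07) and *Pkm* (-0.02 ± 0.11), and the error of *Slc2a1* (0.18 ± 0.56) leaves its difference poorly determined.

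Clone 2 and clone 1 differed in 0 of the members by adjusted p (limma, and with the fold threshold also edgeR and DESeq2), where 0.714% of all genes were called higher and 0.252% lower. At an unadjusted p under 0.05 (limma) 1 member, *Pgam2*, was higher, where 1702 of all 17075 genes were higher and 1129 lower. *Pgam2* stood at 76.4 and 68.8 in clone 1 and 119 and 115 in clone 2 (log2 0.68 ± 0.25, adjusted p = 0.226). Of the 9 genes for HIF subunits and oxygen sensing, *Epas1*, which encodes HIF-2 alpha, was called higher in the clones than in the control line. It stood at 3701 and 1766 in the control line, 7008 and 7014 in clone 1 and 5996 and 4725 in clone 2 (log2 1.26 ± 0.26, adjusted p = 0.0384). That call is of the mean of both clones, where 0.990% of all genes were called higher. With each clone set against the control singly, 1 gene of this list was called higher in clone 1. In clone 2 it was 0, also by adjusted p alone. How the *Epas1* call moves under other settings is not given here. Between the clones themselves, 3 of 7 pluripotency markers were called higher in clone 2.

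Genes of neighbouring pathways were counted by the same rules. In MEF against iPS, 26.6% of all genes were called lower and 21.6% higher, or 41.9% and 37.4% by adjusted p alone. In the TCA cycle list 1 of 18 genes was called, *Suclg2*, lower in MEF (log2 -1.24), and 4 were higher and 11 lower by adjusted p alone. Of 9 pentose phosphate genes 3 were called lower in MEF, of which *Tktl2* and *Tktl1*, relatives of transketolase, differed most (log2 -6.33 and -4.88). Among 28 other genes of glucose handling 13 were called lower in MEF and 6 higher. They were led by *Fbp2* and the sodium-glucose cotransporter *Slc5a1* on the low side (log2 -6.37 and -6.15) and by *Slc2a13* and *Slc2a10* on the high side (4.66 and 3.80). Of 24 other genes of pyruvate and lactate handling 5 were called lower and 5 higher, no more than the shares of all genes. *Pdha2* and *Ldhc*, forms known from testis, were lowest (log2 -5.88 and -5.21) and *Pdp1*, the phosphatase that switches pyruvate dehydrogenase back on, highest (2.29). Of 7 genes of the Myc and Mlx family 4 were called lower in MEF. *Myc* was at 2594 and 2481 in MEF against 44613 to 88310 in iPS and 126810 and 139920 in the pre-iPS line, values to which the c-Myc virus can add in every line but MEF. In pre-iPS cells against iPS, *Pklr*, the pyruvate kinase of liver and red cells, differed by log2 -4.95 and *Tktl2* by -6.91, and *Mycn* by -3.0.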

How the data were processed

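Poly(A) RNA from 10 libraries was sequenced as 50-nt single reads, and the submitters' processing notes name FastQC, CASAVA 1.8.2, TopHat2 2.0.8b, HTSeq 0.5.3p9, edgeR and mm10; the annotation and the strand setting are not given in the sources used here. The authors deposited a normalised signal, edgeR pseudo-counts at 1 common effective library size, which were used as log2(value + 1) with genes of at least 10 in at least 2 libraries. Lines were compared by limma 3.58.1 (R 4.3.3) with 1 mean for each line over the 10 libraries, and passages over 8 libraries with the line as a block, with Benjamini-Hochberg adjustment. Whole reads were recovered for 100% of values (within 0.01 reads), and on them edgeR 4.0.16 and DESeq2 1.42.0 were run as alternatives, edgeR giving 21 members at an adjusted p under 0.05 for passage. The passage numbers paired the libraries, since deviations from the line means correlated at 0.235 to 0.504 in all 6 pairs of lines. Other settings tried were pseudocount, filters, quantile normalisation, scaling to total reads (added after seeing the data), fewer libraries and each library left out. Exon lengths and shared 50-base stretches came from the reference annotation. All 38 members are named, and of other lists at most the 2 called genes with the largest rise and fall. Members and lists were chosen with earlier results of these data known. The fits were also run on simulated counts with the same spread for every gene, a simpler setting than these data, and nothing is concluded from that here.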

Additional observations from a re-analysis of the deposited data

Results flagged for a closer look

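In a test for a single sample far from the rest, 1 of 38 genes stood out among the 6 iPS libraries, and chance flags about 1 in 20 such groups. *Pfkfb4* was at 928.7 in the clone 1 library of passage 5 and at 407 to 596 in the other 5. The gap to the next library was 0.637 of the whole range, above the 95% critical value of Dixon for 6 samples. Leaving that library out takes clone 1 out of the passage fit. The log2 fold change of *Pfkfb4* with passage was then -0.44 (limma, adjusted p = 0.123), where it was -0.54 with all. Without the clone 1 library of passage 25 it was -0.44 too. The adjusted p of *Pfkfb4* was over 0.05 in 6 of the 8 fits that left out 1 library, which come in pairs, 1 pair for each line.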

How the results depend on the processing

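By adjusted p alone, without the fold threshold, the counts of members were 32 for MEF against iPS, 9 for pre-iPS cells against iPS, 31 for pre-iPS cells against MEF, 2 for the Netrin-1 derived clones against the control and 21 for passage. With passage as a replicate block these became 21 for pre-iPS cells against iPS, and 1 member was called in the clones against the control where 0 were without it. The block moved no other count by over 1.5 times. For pre-iPS cells against iPS, 1 member was called where the main count was 2 with a pseudocount of 5, with genes of a mean under 50 left out and with quantile normalisation. In the 6 iPS libraries alone the passage count by adjusted p was 11.

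Leaving out 1 library at a time gave 14 to 17 members called for MEF against iPS (28 to 33 by adjusted p), 1 to 3 for pre-iPS cells against iPS (6 to 11), 15 to 18 for pre-iPS cells against MEF (23 to 32), 0 for both comparisons of the clones, and 2 to 3 for passage (6 to 20). Of 95 results for single genes under 1770 alternatives in all, 1619 kept their direction and side of the threshold, 150 kept the direction and missed the threshold, and 1 turned, *Pdha1* in MEF against iPS, at -0.024 when scaled to total reads. The causes of these changes were not tested, and the shares of all genes in the fits with fewer libraries are not given here. With 2 libraries for each line and a median difference within a line of 0.19 to 0.232 on the log2 scale (MEF 0.0617), small differences could be missed in genes that vary within a line. The difference within a line is also one between its passages.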
